A study of Homo sapiens with 40 samples.

Results

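BT474R cells treated with EGF for 1 h (EGF-BT474R) were compared with BT474R cells treated with heregulin (HRG) for 1 h (HRG-BT474R) by ATAC-seq, which reads open chromatin through the insertions of a transposase. The comparison used 4 of the 40 peak lists of the series, 2 per ligand, chosen by their titles. Peaks of these 4 lists on chromosomes 1 to 22 and X were merged where they overlapped by 1 bp or more, which gave 57790 regions. BT474 is a HER2-amplified breast cancer epithelial line, and BT474R is 1 clone derived from it by growth in trastuzumab, an antibody against HER2. Per the study's methods, cells were serum starved and then given a ligand or water as the vehicle, and duplicates were taken for each condition. EGF was given at a higher mass concentration than HRG, and the part of dose was not tested. BT474R lists of vehicle at 1 h and of the starved baseline (0 h) are given beside the ligands as references, with 2 lists each. Nothing in the labels says that duplicates came from separate cultures, so the spread between them may be technical.

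EGF is a ligand of EGFR. HRG binds HER3 and HER4, which have HER2 as their preferred partner. Both ligands are known to reach the RAS and MAPK cascade and, to different degrees, PI3K and AKT. Within an hour such signalling switches on immediate early genes, among them FOS and JUN, whose products join into the AP-1 factors. AP-1 binds enhancers and can open them, and feedback genes of the DUSP and SPRY families then restrain the cascade.

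The lists carried the chromatin of luminal epithelial cells. All 14 luminal epithelial markers, among them KRT8, KRT18, GATA3 and ERBB2, had a peak within 1 kb of a start in all 4 lists. The same was true of 2 of 6 basal, 1 of 6 fibroblast (COL1A1), 2 of 4 endothelial (CDH5 and KDR) and 1 of 6 immune markers (CD68). PTPRC, PECAM1, PDGFRA and KRT14 had no promoter peak in any of the 4.

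The 4 lists differed in length. EGF-BT474R held 51503 and 47474 peaks and HRG-BT474R held 52162 and 56334, a mean of 49489 ± 2849 against 54248 ± 2950 (SD, n = 2). Both EGF lists were shorter than both HRG lists. Vehicle lists at 1 h held 56494 and 54256 peaks. The peaks covered 31.2 and 29.0 Mb after EGF and 31.7 and 35.1 Mb after HRG. For the number of peaks and for the covered length, the exact two-sided permutation test gave p = 0.333, the smallest value that 2 lists against 2 can give. The share of peaks within 1 kb of a gene start was 36.8% and 38.5% after EGF and 36.9% and 35.3% after HRG, which overlapped between the ligands (exact p = 0.667). The read depth behind the lists was not analysed here, so the part of depth in these lengths was not tested.

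As whole lists, the ligands stood hardly further apart than replicates. The share of covered bases that 2 lists had in common was 84.4% between the EGF replicates and 84.1% between the HRG replicates. Between an EGF and an HRG list it ran from 79.2% to 84.8%, so that 1 pair of different ligands shared more than either pair of replicates. Most regions, 44426 of 57790 (76.9%), had a peak in all 4 lists. EGF replicates disagreed on the presence of a peak in 6275 regions and HRG replicates in 6948.

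A region was called EGF-only where both EGF lists and neither HRG list had a peak, and HRG-only in the opposite case. There were 90 EGF-only regions (0.156% of all) and 1913 HRG-only regions (3.31%). With lists of equal length the imbalance was smaller. From the 47474 highest-scoring peaks of each list, 511 EGF-only (0.993%) and 648 HRG-only regions (1.26%) were found among 51448 regions. Of the 511, 45 were EGF-only with the complete lists too (8.81% of the 511 and 45 of the 90). Of the 648, 354 were HRG-only with the complete lists (54.6% of the 648 and 18.5% of the 1913). Both numbers were small beside the 4946 and 4928 regions on which EGF and HRG replicates disagreed with equal numbers of peaks.

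**Figure D1:**
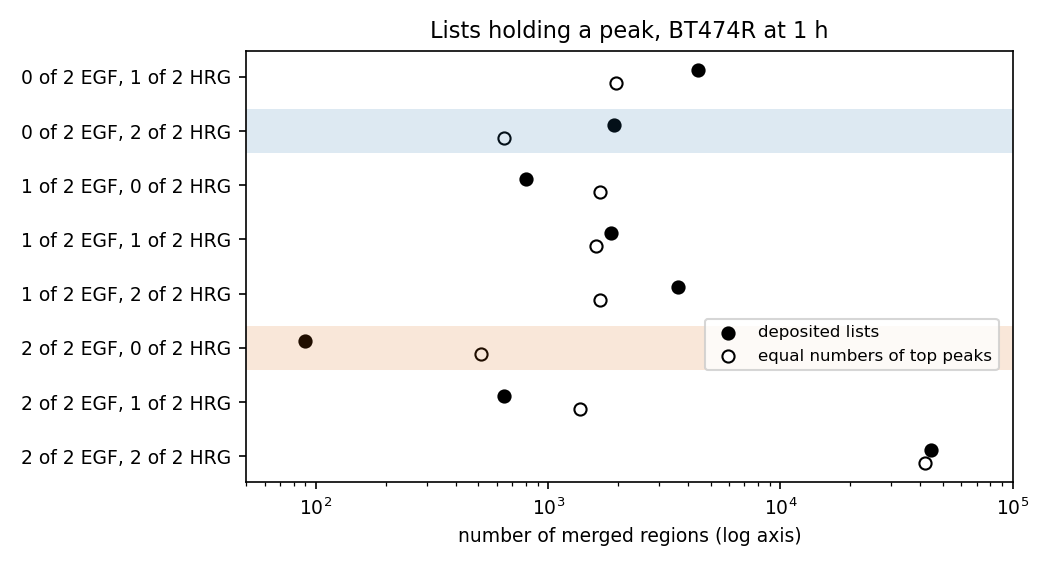
Number of merged regions (log axis) by how many of the 2 EGF and 2 HRG lists held a peak, for the deposited lists (filled) and the 47474 top peaks of each list (open). The shaded rows are the EGF-only regions (90 and 511) and the HRG-only regions (1913 and 648).

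Separated regions were weak peaks. Each peak has a score, the area under its significance curve, and was given the rank percentile of that score within its own list, where a high percentile is a high score. A lower percentile can come from fewer cells with an open region or from less opening per cell, which bulk lists cannot tell apart. The mean percentile of the 2 lists holding a region had a median of 6.46 for EGF-only and 9.66 for HRG-only regions, and it reached 20 in 6 of 90 and 176 of 1913. The values of the leading regions are therefore the most informative. Sequences of some of them follow, as the 200 bases around the peak summit on the plus strand of GRCh38. The first, in an intron of PMEPA1, is shown as a leading EGF-only region, and no letters are in capitals because it holds no AP-1 match (TGANTCA with C or G at N).
PMEPA1, chr20:57702065-57702264: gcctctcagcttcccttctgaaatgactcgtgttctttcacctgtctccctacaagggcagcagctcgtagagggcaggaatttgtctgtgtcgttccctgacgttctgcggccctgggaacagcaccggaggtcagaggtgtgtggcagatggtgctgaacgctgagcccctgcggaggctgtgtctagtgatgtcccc

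The EGF-only region with the highest percentile lay 8.92 kb from the nearest start of PLK2, a polo-like kinase known as a serum-inducible early response gene, outside protein-coding genes. It ranked at 46.2 and 44.4 in the EGF lists and had no peak in the other 38 lists of the series. A region in an intron of PMEPA1 (chr20:57701154-57702410), an inhibitor of TGF-beta and androgen receptor signalling, ranked at 33.0 and 41.7 after EGF. It was at 2.2 in 1 vehicle list and had no peak in the other. In BT474, the trastuzumab-sensitive parent line, the same region ranked at 62.9 and 60.5 after 1 h of HRG and at 20.9 in 1 of 2 EGF lists, the opposite order of ligands.

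The other leading EGF-only regions varied between replicates, had vehicle peaks or ranked lower after EGF. The KCTD16 region (chr5:144198471-144198996), in an intron of a GABA-B receptor subunit gene, ranked at 37.3 and 27.8 after EGF and at 31.4 and 33.6 in the vehicle lists, so its EGF and vehicle values overlapped. A region 74.4 kb from the start of NECTIN3, a cell adhesion gene, was at 9.53 and 35.9 after EGF, and the promoter of BZW2 was at 35.2 and 7.67. These pairs of replicates differed by more than 25 points. The last of the 6, beside the snRNA pseudogene RNU6-1008P in an intron of NVL, a ribosome biogenesis gene, was at 22.0 and 19.5. It had no vehicle peak at 1 h and had a peak in 28 of the 40 lists.

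Several of the leading HRG-only regions were already open without a ligand. The first, at chr22:49015590-49016654 and 323 kb from the nearest protein-coding start (TAFA5), ranked at 49.8 and 55.1 after HRG and at 62.6 in both vehicle lists. A region at chr1:103326070-103326882, 199 kb from RNPC3, was at 44.5 and 44.1 after HRG and at 48.8 and 51.3 in vehicle. In an intron of LIMCH1, an actomyosin regulator, a region at chr4:41480533-41481407 was at 33.8 and 54.8 after HRG, at 23.7 and 61.0 in vehicle, and at 54.1 and 59.8 at baseline. Neither EGF list held any of these.

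The promoters of WNK2 and SAMD13 were also HRG-only, but they varied between untreated replicates. WNK2 encodes a kinase known to restrain MAPK signalling. Its promoter (chr9:93183807-93184961) ranked at 57.9 and 46.9 after HRG, at 7.95 and 56.4 in vehicle, and at 59.3 in 1 baseline list with no peak in the other. The SAMD13 promoter (chr1:84298385-84299348) was at 44.8 and 52.2 after HRG and at 7.36 and 43.99 in vehicle. A region on chromosome 4 2086 kb from the nearest coding start (TENM3), the last of the 6, was at 42.4 and 42.6 after HRG and absent from 1 of 2 vehicle and 1 of 2 baseline lists. For these 3 regions the spread between untreated replicates was as wide as the difference between the ligands.

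**Figure D2:**
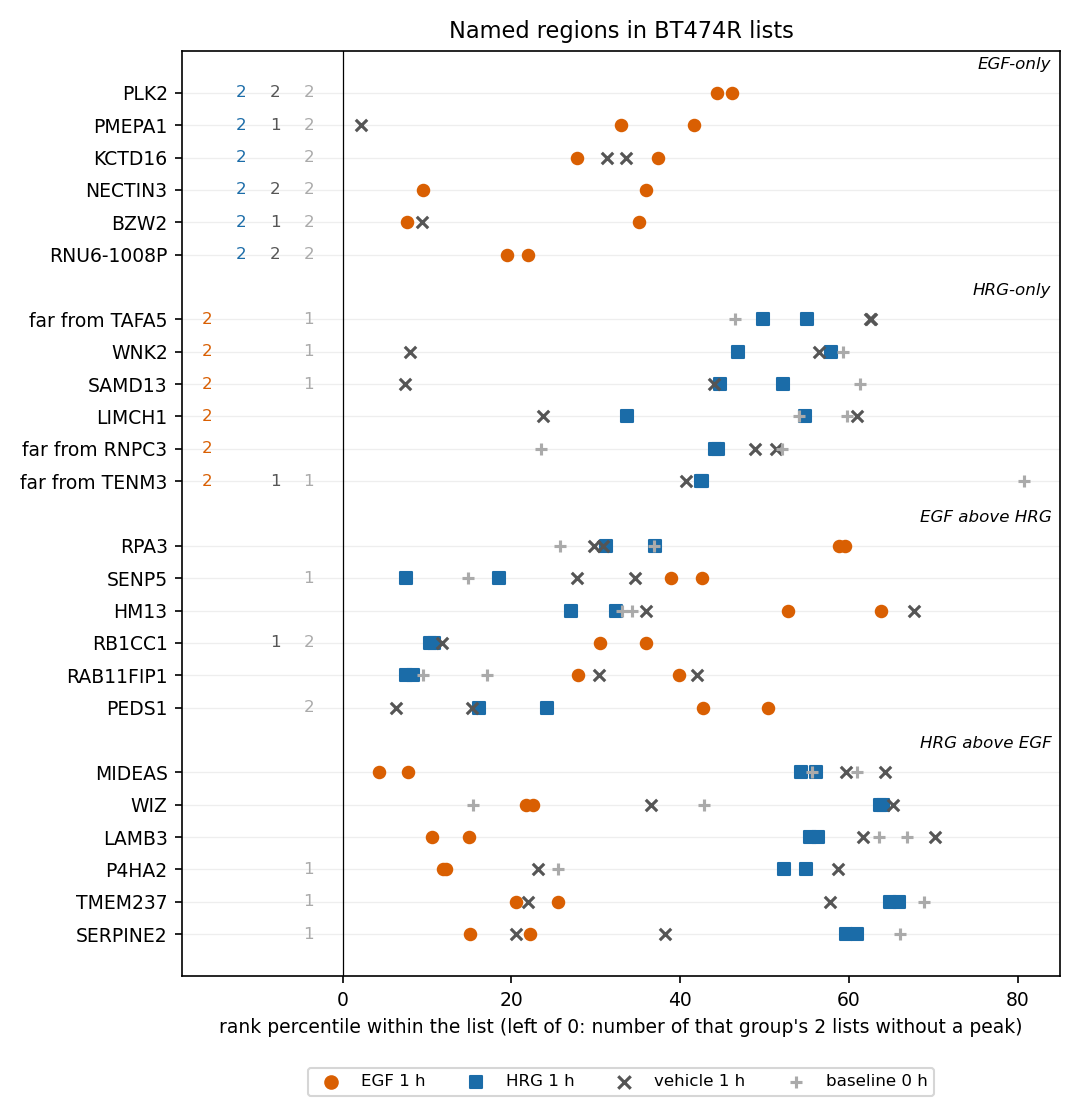
Rank percentile of the named regions in the 2 lists each of EGF, HRG and vehicle at 1 h and baseline in BT474R. Digits left of 0 count the lists of that group without a peak. Vehicle points lie near or above the HRG points in both lists at MIDEAS, LAMB3 and the regions far from TAFA5 and RNPC3, while the other 8 HRG-only and HRG-above regions have a vehicle replicate that is low or without a peak.

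Over the whole sets the same contrast with vehicle was seen. Of the 1913 HRG-only regions, 83.8% and 77.1% had a peak in the 2 vehicle lists at 1 h, and 1314 (68.7%) in both. Of the 90 EGF-only regions, 22.2% and 23.3% had one and 61 (67.8%) were in neither. With equal numbers of top peaks, 567 of 648 HRG-only regions (87.5%) had a peak in both complete vehicle lists against 237 of 511 EGF-only regions (46.4%). The baseline replicates disagreed. HRG-only regions were found in 74.6% and 31.3% of cases at baseline, in lists of 53007 and 44546 peaks.

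**Figure D3:**
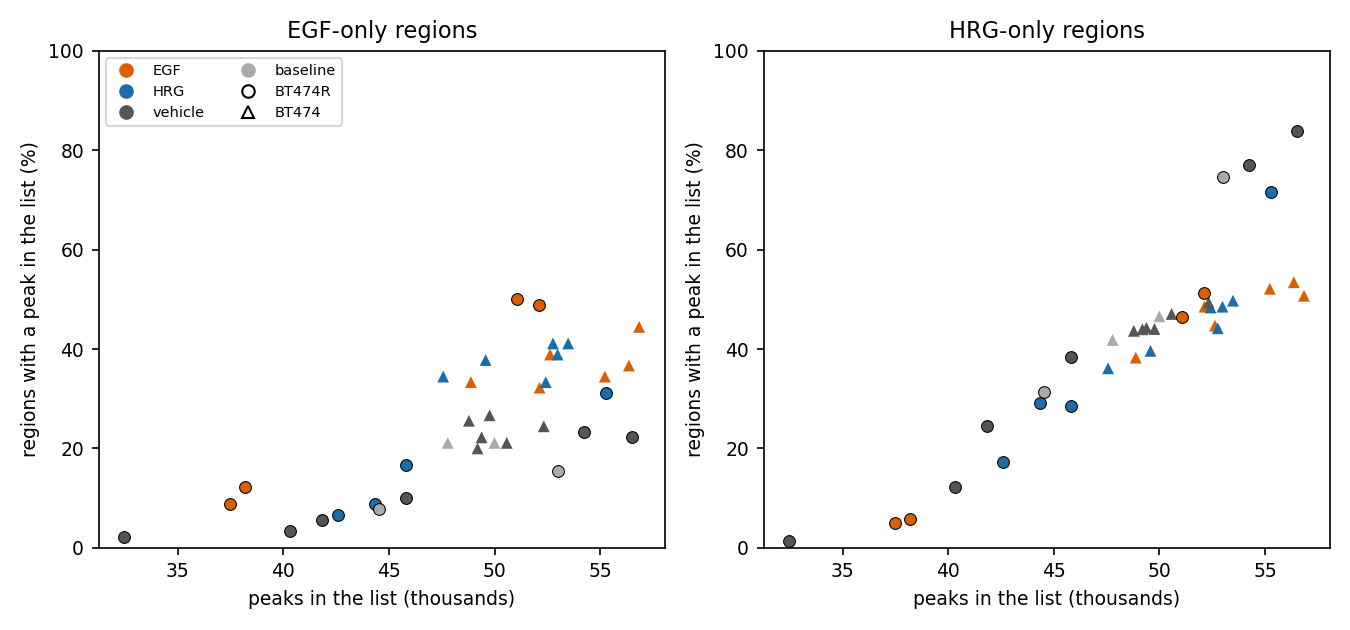
Share of EGF-only (left) and HRG-only (right) regions with a peak in each of the 36 other lists, against the number of peaks of that list. Circles are BT474R, triangles BT474, and colours give the treatment. The share rises with list length for HRG-only regions, and the 2 BT474R lists of EGF at 24 h (44 and 45 of 90 regions) stand above the rest for EGF-only regions.

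In the other deposited lists, EGF-only regions reappeared most often after EGF at 24 h in BT474R, in 44 and 45 of the 90. The lists of HRG at 24 h held 31.1% and 8.89% of them and those of vehicle at 24 h held 5.56% and 10.0%. The EGF lists at 24 h had 52126 and 51080 peaks, more than both vehicle lists (41833 and 45799), while the HRG lists had 55289 and 44351. At 12 h in BT474R the EGF lists, with 38205 and 37476 peaks, held 12.2% and 8.89%. With the 32479 top peaks of each of the 40 lists the order of times turned, since 382 EGF-only regions defined in that way were found in 50.5% and 47.9% of cases after EGF at 12 h and in 41.4% and 46.6% after EGF at 24 h. In BT474 at 1 h, with the deposited lists, the shares were 38.9% and 33.3% after EGF, 34.4% and 37.8% after HRG, and 25.6% (23 of 90) in 1 vehicle list and 18 of 90 in the other. There, the 2 ligands overlapped and both lay above vehicle. The BT474 lists at 12 h held 29 and 40 of the 90 after EGF, 37 and 35 after HRG, and 20 and 24 in vehicle. HRG-only regions were at 44.7% and 38.3% after EGF, 36.1% and 39.6% after HRG and 43.6% and 43.96% in vehicle in BT474 at 1 h, so the BT474 ligand lists did not repeat that set's direction.

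An AP-1 match on either strand within 100 bp of the summit was found in 27 of 90 EGF-only regions (30.0%, 95% Wilson interval 21.5 to 40.1) and in 102 of 1913 HRG-only regions (5.33%, 4.41 to 6.43), against 12.0% of all 57790 regions. Intervals cover counting error only, since regions of the same lists are not independent replicates. With equal numbers of top peaks the shares were 30.5% of 511 and 3.70% of 648, against 12.4% of all. Regions held by a single EGF list had it in 24.3% of 802 cases and those held by a single HRG list in 8.25% of 4438. Regions of 1 list share none with the EGF-only and HRG-only sets, but they come from the same 4 lists and are no independent support. In both comparisons the share lay above that of all regions on the EGF side and below it on the HRG side.

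AP-1 letters were most frequent where the vehicle lists had no peak. Among the 511 EGF-only regions of the equal lists, 79 of the 155 with no vehicle peak held a match (51.0%, 43.2 to 58.7), against 41 of the 237 with a peak in both vehicle lists (17.3%, 13 to 22.6). The following sequences show 3 of the highest-ranked of the 79, in introns of BORCS5, TOM1L1 (nearest start COX11) and ETV7, and a region near PEDS1 described below. They were chosen after their values were seen. The capitals mark TGACTCA or TGAGTCA, the strong form of the site that FOS and JUN dimers bind.
BORCS5, chr12:12398410-12398609: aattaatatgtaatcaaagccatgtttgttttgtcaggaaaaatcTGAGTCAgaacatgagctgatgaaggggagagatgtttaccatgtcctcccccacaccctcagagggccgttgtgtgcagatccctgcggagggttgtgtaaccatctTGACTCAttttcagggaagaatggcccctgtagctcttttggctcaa
COX11, chr17:54948517-54948716: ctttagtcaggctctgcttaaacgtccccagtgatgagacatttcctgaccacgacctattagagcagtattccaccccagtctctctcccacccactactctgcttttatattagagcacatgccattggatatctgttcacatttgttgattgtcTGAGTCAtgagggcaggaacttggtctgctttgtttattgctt
ETV7, chr6:36383758-36383957: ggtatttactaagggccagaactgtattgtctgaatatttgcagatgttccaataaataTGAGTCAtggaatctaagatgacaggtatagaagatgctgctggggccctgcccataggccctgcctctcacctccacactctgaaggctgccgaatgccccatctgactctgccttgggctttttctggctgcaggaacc
PEDS1, chr20:50163903-50164102: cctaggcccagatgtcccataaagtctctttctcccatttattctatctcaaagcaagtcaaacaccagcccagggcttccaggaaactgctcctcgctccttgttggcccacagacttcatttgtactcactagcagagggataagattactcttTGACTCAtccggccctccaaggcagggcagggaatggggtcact

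The region in the BORCS5 intron, which had 2 matches, ranked at 48.5 and 46.1 among the top EGF peaks, was at 13.4 in 1 complete HRG list, and had no peak in the other HRG list or in vehicle. In BT474 it had no vehicle peak at 1 h and ranked between 60.4 and 68.6 in the 4 ligand lists. The ETV7 region was at 25.4 and 15.3 after EGF, and at 12.5 in 1 HRG list. Near COX11 the values were 24.6 and 23.7 after EGF and 5.38 in 1 HRG list. In all 3, 1 complete HRG list still held a weak peak, and EGF above HRG is fixed by how the set was chosen. The regions ranked between them, in introns of TANC2 and METTL8 and far from SP8, had weak peaks in both complete HRG lists, and TANC2 was at 59.1 in 1 HRG list at 24 h against 46.3 and 31.5 after EGF.

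Other fixed motifs differed less. The forkhead letters (TGTTTAC) were in 15.6% of EGF-only, 8.10% of HRG-only and 8.51% of all regions, and in 10.6% of the 511 with equal numbers. AP-2 letters (GCCNNNGGC), a motif of luminal cells, were in 6.67% of EGF-only and 16.8% of HRG-only regions against 17.9% of all. ETS letters (CCGGAAG), frequent at promoters, were in 1.11% and 1.83% against 4.44%, and CRE letters (TGACGTCA) in 1.11% and 0.314% against 0.805%. The median GC content of the 200 bases was 43.0% in EGF-only, 52.0% in HRG-only and 53.0% in all regions, and its part in the motif shares was not tested.

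Both sets lay mostly away from gene starts. Promoters, taken as 1 kb around a start, held 17 of 90 EGF-only regions (18.9%) and 432 of 1913 HRG-only regions (22.6%), against 34.7% of all regions. The median distance to a protein-coding start was 12.4 kb and 13.3 kb against 8.68 kb.

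**Figure D4:**
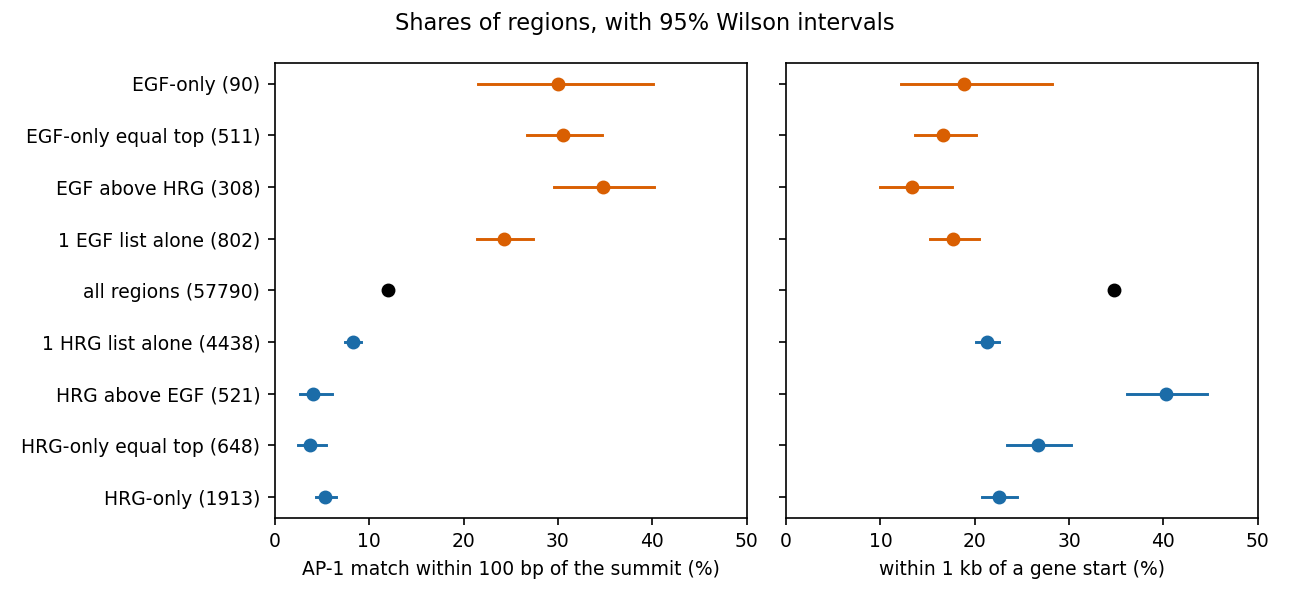
Share of each set of regions with an AP-1 match within 100 bp of the summit (left) and within 1 kb of a gene start (right), with 95% Wilson intervals and the number of regions in brackets. EGF sets (orange) lie between 24.3% and 34.7% for AP-1 and HRG sets (blue) between 3.70% and 8.25%, on either side of all regions (12.0%).

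The 44426 regions with a peak in all 4 lists allowed a finer comparison by rank. Their EGF minus HRG difference had a median of -2.68 percentile points on the within-list scale. When ranking was repeated among the 44426 regions alone, the median was 0.27. There the median absolute difference was 2.68 points between EGF replicates, 2.72 between HRG replicates and 2.89 to 3.34 between an EGF and an HRG list. Both EGF lists ranked above both HRG lists in 10948 regions (24.6%) and the opposite held in 7783 (17.5%). On the within-list scale the same counts were 2008 and 18509, so the direction of small differences depended on the scale. A gap of more than 10 points between the lowest list of one ligand and the highest of the other remained in 308 regions with EGF above (0.693%) and in 521 with HRG above (1.17%). Gaps over 20 points were found in 14 and 89.

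**Figure D5:**
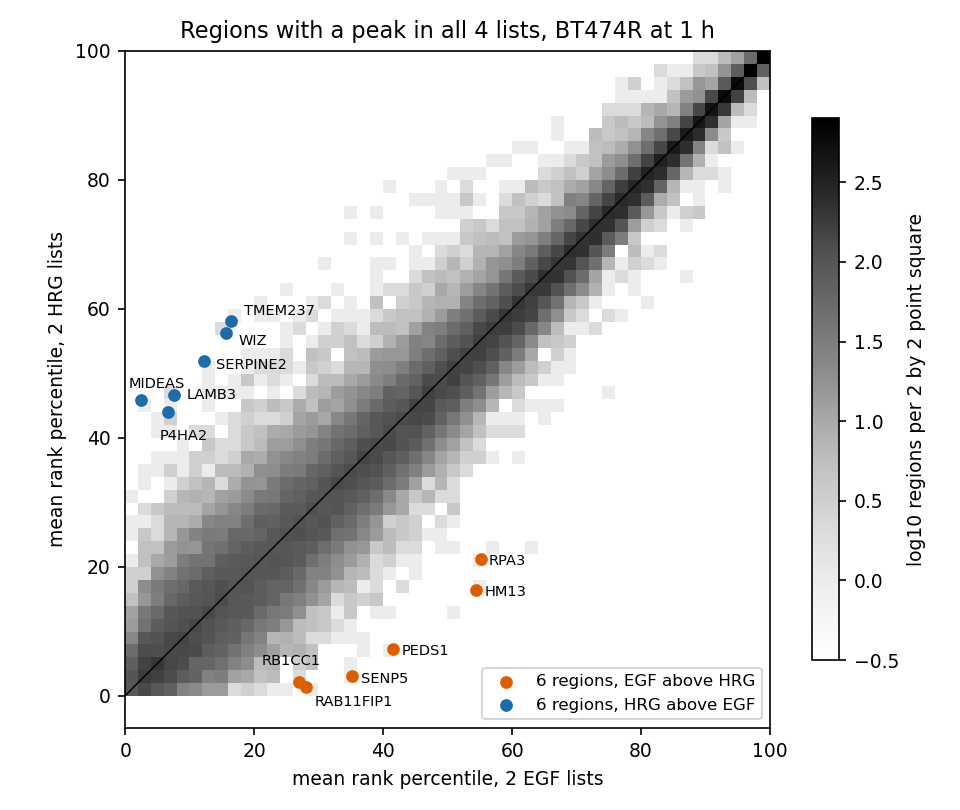
Mean rank percentile in the 2 EGF lists (x axis) and the 2 HRG lists (y axis) of the 44426 regions in all 4 lists, ranked among themselves, with the density on a log scale and equality as a line. The 12 regions with the widest within-list gaps are named, and HRG-above regions spread further from the line than EGF-above regions.

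The limma test across the 44426 regions, with Benjamini-Hochberg adjustment, called 4 regions higher after EGF (0.009%) and 42 higher after HRG (0.0945%) at 0.05. These calls went with the number of peaks into which a region was divided. In 45 of the 46 called regions both lists of one ligand held more peaks than both lists of the other. In 41 of them EGF had the divided peaks, and only CCDC12 had 1 peak in every list. Over all 44426 regions, EGF had more peaks in 183 and HRG in 45. Among the 42434 regions with 1 peak in every list limma called none (lowest adjusted p = 0.11), with 5393 at an unadjusted p under 0.05. With the scores of a region's peaks summed before ranking it also called none, with 4697 unadjusted. With 2 lists per ligand, no undivided region other than CCDC12 passed the limma fit of all 44426 regions. That call too was lost when the fit was limited to undivided regions. Within-list gaps over 20 points were still seen in 1 undivided region with EGF above and in 94 with HRG above. With ranks among the shared regions these counts were 7 and 43.

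Among the divided regions were genes of the signalling lists. IER5, an immediate early gene, had its promoter region at 88.2 and 87.9 after EGF and at 95.2 and 96.2 after HRG (limma difference -7.68 ± 0.54 SE, adjusted p = 0.026). Vehicle was at 88.0 and 95.8, which spans both ligands. RPS6KA1, which encodes the MAPK-activated kinase RSK1, was at 63.0 and 62.9 after EGF, 83.96 and 87.0 after HRG, and 69.7 and 65.1 in vehicle (difference -22.5 ± 1.98 SE, limma adjusted p = 0.0446). In both genes the EGF lists held 2 peaks where the HRG lists held 1. They were named after their values were seen, as the only called regions assigned to a gene of the pathway lists.

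On the within-list scale the widest gap of all was at MIDEAS, a subunit of a histone deacetylase complex, and the third widest at LAMB3, a laminin subunit. Their summit sequences are given because both had 1 peak per list and stood as high in vehicle at 1 h and at baseline as after HRG. Neither holds an AP-1 match, and no letters are in capitals.
MIDEAS, chr14:73746521-73746720: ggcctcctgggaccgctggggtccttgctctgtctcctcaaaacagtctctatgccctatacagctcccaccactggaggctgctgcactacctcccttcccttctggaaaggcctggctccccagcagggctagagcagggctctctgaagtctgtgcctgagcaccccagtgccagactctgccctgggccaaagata
LAMB3, chr1:209620528-209620727: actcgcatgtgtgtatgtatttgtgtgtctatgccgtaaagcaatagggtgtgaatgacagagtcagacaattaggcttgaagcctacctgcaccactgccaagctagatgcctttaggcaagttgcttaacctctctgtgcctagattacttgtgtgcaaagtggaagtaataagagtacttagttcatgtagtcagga

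The MIDEAS region (chr14:73746064-73746752, intronic, 7.15 kb from the nearest start) ranked at 7.7 and 4.3 after EGF and at 54.4 and 56.1 after HRG. It was at 64.3 and 59.7 in vehicle and at 61.0 and 55.7 at baseline, so that all 6 other lists stood far above both EGF lists. The difference was -49.2 ± 4.5 SE and did not pass the threshold (limma adjusted p = 0.0525 in the fit of all shared regions). The LAMB3 region (chr1:209620051-209620806, intronic) behaved alike, at 10.6 and 15 after EGF, 55.4 and 56.3 after HRG, 70.2 and 61.7 in vehicle and 66.9 and 63.6 at baseline (difference -43.0 ± 4.37 SE, limma adjusted p = 0.0695). In both regions HRG and vehicle lay on one side and EGF stood apart. Both had 1 peak in every list, and in the limma fit of such regions no adjusted p was below 0.11.

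The other 4 leading regions with HRG above EGF were promoters, and their untreated replicates were less stable. WIZ, a partner of histone methyltransferases, was at 22.6 and 21.7 after EGF, 63.7 and 64.1 after HRG, and 36.5 and 65.3 in vehicle. It was divided in 1 EGF list, and its difference was -41.7 points, or -25.7 with summed scores. P4HA2, a collagen prolyl hydroxylase subunit, was at 12.2 and 11.9, at 52.3 and 54.9, and at 23.2 and 58.7 in the same order. TMEM237, a ciliary gene, was at 25.5 and 20.5, at 65.9 and 64.9, and at 22.0 and 57.7. In these 3 the replicates of each ligand lay close together, while the vehicle replicates lay far apart. SERPINE2, a serine protease inhibitor, was at 22.2 and 15.2 after EGF, 61.0 and 59.7 after HRG, and 38.2 and 20.6 in vehicle, where vehicle was closer to EGF than to HRG. Adjusted p-values of the 4 in limma ran from 0.0525 to 0.0832.

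In the opposite direction the leading regions had smaller gaps. Near PEDS1, a plasmalogen desaturase gene, the region at chr20:50163693-50164321 with the AP-1 match printed above ranked at 50.4 and 42.7 after EGF, 16.1 and 24.2 after HRG and 15.4 and 6.30 in vehicle. RB1CC1, an autophagy gene, had an intronic region with an AP-1 match at 30.6 and 35.9 after EGF, 10.4 and 10.8 after HRG, and 11.8 in 1 vehicle list with no peak in the other. In both, HRG stood near vehicle. A region in an intron of RPA3, a replication protein A subunit, was at 58.9 and 59.6 after EGF, 31.2 and 37.0 after HRG, and 30.9 and 29.8 in vehicle. There the HRG lists held 2 peaks and the EGF lists 1, and the difference fell from 25.1 to 5.57 points when scores were summed.

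At SENP5, HM13 and RAB11FIP1 the vehicle lists did not side with HRG. A region 23.9 kb from SENP5, a SUMO protease gene, was at 42.6 and 39.0 after EGF, 7.47 and 18.5 after HRG, and 27.8 and 34.7 in vehicle. RAB11FIP1, an endosome recycling gene, was at 39.9 and 27.9, at 7.50 and 8.30, and at 42.0 and 30.5. HM13, a signal peptide peptidase, was at 63.8 and 52.8, at 27.1 and 32.4, and at 35.9 and 67.8. The HM13 region was 1 peak in 1 EGF list and 2 peaks in the other 3 lists, and its difference fell from 28.6 to 18.3 points with summed scores. None of the 6 regions with EGF above HRG passed the limma test (adjusted p from 0.2276 to 0.3763).

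Over the 521 regions with HRG above EGF by more than 10 points, the vehicle levels lay with HRG. The median within-list percentile was 30.9 and 24.6 in the EGF lists, 50.3 and 54.8 in the HRG lists and 52.9 and 53.1 in the vehicle lists, which all held a peak in all 521. For the 308 regions with EGF above HRG the medians were 41.4 and 35.7 after EGF, 26.2 and 31.6 after HRG, and 27.8 and 30.0 in vehicle. The vehicle medians cover only the 277 and 276 of the 308 regions that had a vehicle peak, which leaves out the lowest. Vehicle took no part in choosing these regions. Of the 308, 34.7% held an AP-1 match and 13.3% were at promoters, and of the 521, 4.03% and 40.3%. Over the 44426 regions in all 4 lists these shares were 12.4% and 38.8%, so the promoter share of the 521 was near that of all. The median GC content was 44.8% in the 308 and 56.5% in the 521, against 54.0% in the 44426.

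The pathway lists were compared with all regions assigned to a protein-coding gene by its nearest start within 100 kb. Of 50618 such regions, 0.144% were EGF-only and 3.17% HRG-only, and of the 39393 in all 4 lists, EGF ranked above in 24.4% and HRG in 17.6%. The MAPK feedback genes had 136 regions in all 4 lists, with EGF above in 48 (35.3%) and HRG above in 11 (8.09%), and their median difference was 1.22 points against 0.24 over all assigned regions. NF-kB and TGF-beta genes had EGF above in 50 of 145 (34.5%) and HRG above in 23, with a median of 1.03. Immediate early genes had 58 of 206 (28.2%) and 29 of 206. Their median of 0.28 was close to that of all regions. Lipid synthesis genes were the 1 list with more regions in the HRG direction, 26 (25.7%) against 20 (19.8%), and a median of -0.40. The ERBB, interferon and STAT, PI3K, steroid receptor and luminal, and hypoxia lists had EGF above in 22.1% to 26.8% of regions, near the background. None of these counts was tested against the rest.

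With ranks among the shared regions, MAPK feedback genes with a gap above 10 points were DUSP6, DUSP10, DUSP16 and SPRED2 in the EGF direction and DUSP5 in the HRG direction. These were 4 and 1 of their 136 regions in all 4 lists, against 0.693% and 1.17% of all shared regions. The gaps in DUSP6 and DUSP16 are narrower on the within-list scale of the values that follow, and SPRED2 overlaps there (26.1 and 19.1 after EGF, 14.2 and 19.9 after HRG). DUSP6 encodes the ERK phosphatase, and a region in an exon, 1.65 kb from the nearest start, was at 67.3 and 64.7 after EGF, 52.6 and 61.5 after HRG, and 47.4 and 46.1 in vehicle. At baseline the DUSP6 region was at 62.5 and 67.4, which overlapped EGF and lay above both HRG lists. The DUSP16 region lay in the BORCS5 intron, 54.9 kb from the nearest coding start, that of DUSP16, and held an AP-1 match. It was at 53.2 and 48.6 after EGF, 28.0 and 46.3 after HRG, and 3.33 and 19.8 in vehicle. Here both ligands were above vehicle and EGF above HRG, although 1 HRG list came near the EGF values. A region 63.9 kb from DUSP5 was at 18.7 and 12.5 after EGF, 31.6 and 40.7 after HRG, and 52.3 and 37.9 in vehicle.

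By the same measure, immediate early genes had 2 regions with EGF above and 4 with HRG above, of 206 in all 4 lists. Over all shared regions the shares were 0.693% and 1.17%, so these counts are too few to read as a trait of the gene class. Regions near JUN and KLF2, both transcription factor genes, had EGF above. On the within-list scale the JUN region was at 62.4 and 51.8 after EGF and at 41.8 and 51.2 after HRG. The ligands nearly met there, and vehicle was at 42.9 and 50.3. The KLF2 region was at 71.3 and 68.8 after EGF, 60.1 and 62.0 after HRG and 61.7 and 55.5 in vehicle. BTG2, KLF4, MYC and SRF had HRG above. At MYC 1 EGF list was at 41.6, divided into 3 peaks, and the other at 68.7, against 81.4 and 85.8 after HRG. The intronic BTG2 region, in a gene that restrains proliferation, was at 21.0 and 16.4 after EGF, 39.2 and 41.4 after HRG, and 45.5 and 40.4 in vehicle. At promoters of core genes, EGR1 ranked at 99.7 and 99.7 after EGF and 99.6 and 99.6 after HRG, and the FOS promoter at 72.5 and 69.0 against 73.5 and 75.7. The ERBB2 promoter was at or above 99.9 in all 4 lists.

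Separated regions were assigned to 40 of the 305 genes of the pathway lists, in 50 regions, of which 47 were HRG-only and 3 EGF-only. These were 2.91% and 0.186% of the 1613 regions of the list genes, close to the shares over all assigned regions. The 3 EGF-only regions, at SMAD3, INSIG2 and CBLB, ranked at 15.6 or lower in both lists. Among the HRG-only regions with the highest percentiles were those of IER5L, an immediate early gene (38.3 and 27.8 after HRG, 45.0 and 37.7 in vehicle), SMAD6, an inhibitor of BMP signalling (20.2 and 32.3, and 43.9 and 53.8), and SPDEF, a luminal transcription factor (17.0 and 33.2, and 37.9 and 25.5). In SMAD6 both vehicle lists ranked above both HRG lists, and in IER5L and SPDEF the values overlapped. DUSP8, a MAPK phosphatase gene, was at 19.1 and 30.6 after HRG and at 28.8 in 1 vehicle list with no peak in the other. NDRG1, a hypoxia-induced gene, was at 25.7 and 22.3 after HRG and at 20.8 and 7.50 in vehicle, where HRG lay above. The NDRG1 baseline lists were at 42.7 and 7.07, on either side of the HRG values.

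FASN, the fatty acid synthase, had several regions in the HRG direction, and it was singled out after its values were seen. Its gene body lies at chr17:82078338-82098294 on the minus strand, and 9 merged regions were assigned to it. Of these, 2 near internal starts were HRG-only. The one at chr17:82080147-82081750 was at 14.9 and 42.1 after HRG and 34.4 and 98.1 in vehicle. In all 5 regions with a peak in every list both HRG lists ranked above both EGF lists, which held for 17.5% of all shared regions with ranks among them and for 41.7% on the within-list scale. In the gene body, at chr17:82090408-82091490, the values were 0.34 and 3.49 after EGF, 48.0 and 38.0 after HRG, and 68.1 and 91.1 in vehicle. The main peak at the start was between 99.85 and 99.96 in all 4 lists, divided into 2 peaks in each EGF list and whole in each HRG list. In each vehicle list 1 peak spanned the body region at chr17:82090408-82091490 and its neighbour at chr17:82088431-82090252. The vehicle value of 98.1 at chr17:82080147-82081750 was likewise shared with the next region, at chr17:82081951-82086700. These vehicle values are therefore not on the scale of a single narrow peak.

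The difference between the ligands was tested against that in BT474 at 1 h and in BT474R at 12 h by an interaction term in limma. Of 34698 regions with a peak in all 8 lists, 108 (0.311%) differed between the lines, 11 with a more positive and 97 with a more negative EGF minus HRG difference in BT474R. Of the 108, 24 had 1 peak in every list. Of 33614 regions, 56 (0.167%) differed between 1 h and 12 h, 50 of them more positive at 1 h, and 10 had 1 peak in every list. The median interaction over all regions was -3.44 points for the line and 1.96 points for the time, and 0.22 and -0.0089 with ranks among the shared regions. On that scale the calls were 23 positive and 65 negative for the line and 39 and 25 for the time.

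MIDEAS, P4HA2, TMEM237 and SERPINE2 were among the regions that differed between the lines. They had been named for their wide gaps in the same BT474R lists, a choice that favours such a call. In BT474 at 1 h P4HA2 was at 74.7 and 75.7 after EGF and 73.9 and 73.8 after HRG, TMEM237 at 83.0 and 74.9 against 80.5 and 75.8, and SERPINE2 at 83.0 and 82.4 against 81.01 and 82.3. The ligands lay within a few points of each other there. For MIDEAS the BT474 values were 33.2 and 34.9 after EGF and 40.2 and 32.02 after HRG. The LAMB3 region had no peak in any of the 6 BT474 lists at 1 h. At 12 h in BT474R the RPA3 region was at 24.7 and 27.4 after EGF and 55.5 and 53.7 after HRG, the reverse of its order at 1 h.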

How the data were processed

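ATAC-seq peak lists of BT474R and BT474 were used as deposited. Before deposit, reads were trimmed with Trim Galore (0.6.6 in the submitters' processing notes), mapped to GRCh38 with BBMap, and peaks were called with Genrich in each library, without blacklisted and mitochondrial regions. Genrich options: not given in the sources used here. They affect how wide peaks are and whether they are divided. The authors deposited a score for each peak, the area under its significance curve, which scales with depth. Scores were ranked within each list, and no read counts or depths were analysed here. Regions were merged at 1 bp overlap, and a region took the highest percentile of its peaks. Ranks were tested with limma 3.58.1 (R 4.3.3, eBayes with a variance trend, Benjamini-Hochberg 0.05), after the fit was tested on simulated data. Genes are from GENCODE 44.

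Samples were grouped by title. Named regions were, per direction, the 6 separated regions of highest mean percentile, the 6 shared regions with the widest within-list gap, and up to 20 list genes with a separated region. The members and lists were chosen with earlier results of these data known. Equal list lengths, score, width and coverage limits, other scalings, wider windows and leaving out each list were tried as alternatives. After the data were seen, regions with 1 peak per list, summed scores, the 10-point gap sets and a crossed pairing were added. An item of the named lists and a sequence are not reported here.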

Additional observations from a re-analysis of the deposited data

Results flagged for a closer look

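The EGF minus HRG difference at 1 h differed between BT474R and BT474 in 108 regions, and in BT474R between 1 and 12 h in 56 (interaction terms in limma, adjusted p under 0.05). Among the named regions, the difference in BT474R minus that in BT474 was -47.1 percentile points at MIDEAS, -42.9 at P4HA2, -43.2 at TMEM237 and -42.7 at SERPINE2, with limma adjusted p-values from 0.00915 to 0.02937. At RPA3 the difference at 1 h minus that at 12 h was 53.7 points (limma adjusted p = 0.00913). These regions were named for their wide gaps in the same BT474R lists at 1 h. The size of these terms was thus partly fixed by that choice. The RPA3 region was divided into 2 peaks in the HRG lists and 1 in the EGF lists at 1 h, and the part of this division was not tested in the interaction.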

How the results depend on the processing

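Counts moved widely with the settings. The median EGF minus HRG difference turned from -2.68 to 0.27 points with ranks among shared regions and to 0.17 with equal numbers of top peaks. The 90 EGF-only regions became 511 with equal numbers of top peaks, 38 at a score of at least 400 and 304 with peaks trimmed to 400 bp. The 1913 HRG-only regions became 648 with equal numbers. Without EGF replicate 1, EGF replicate 2, HRG replicate 1 or HRG replicate 2, EGF-only regions numbered 208, 778, 206 and 630 and HRG-only regions 4902, 2559, 5713 and 2633. Limma calls (4 with EGF and 42 with HRG higher) were 4 and 178, 9 and 95, 14 and 127, and 52 and 77 without the same lists, the lone list being assumed to vary like the others. They were 26 for HRG with ranks among shared regions, 10 and 100 with quantile-normalised log2 scores, and 0 and 0 with no variance trend, with 1 peak per region and list, or with summed scores. Replicate numbers only name the samples. With the replicate block, calls were 17 and 360, and 13 and 440 with 1 peak per region and list. Deviations of same-numbered lists correlated at -0.198, and the crossed pairing gave 4 and 57 calls. The 108 line interactions were 12 with the replicate block, 23 with 1 peak and 102 to 335 without a replicate, the highest without EGF replicate 1, and 167 without EGF replicate 2. The 56 time interactions were 19, 6 and 22 to 41, with 22 without EGF replicate 1, 37 without EGF replicate 2 and 27 without HRG replicate 1. With equal numbers of top peaks in all 40 lists, the mean share in vehicle was 25.3% for EGF-only (22.8% before) and 72.7% for HRG-only regions (80.5%), and at baseline 29.2% for EGF-only regions (11.7%). Promoters within 3 kb held 30% of EGF-only and 35.8% of HRG-only regions. Within 1 kb were 26.7% of HRG-only regions with equal numbers. In a different set, the 521 shared regions with HRG above EGF by more than 10 points, 40.3% were within 1 kb. Assignment within 10 kb left 39 EGF-only and 845 HRG-only regions. AP-1 matches in HRG-only regions were 3.7% with equal numbers and 8.83% within 250 bp, and the 521 shared regions had 4.03%. The causes of these moves were not tested.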

Other observations

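Some regions with an AP-1 match that ranked higher after EGF at 1 h were followed to the later lists of BT474R. They were chosen after their values were seen. The region near COX11, in an intron of TOM1L1, ranked at 16.4 and 3.39 after EGF at 12 h and at 70.4 and 73.5 at 24 h. After HRG it was at 10.6 in 1 list at 12 h and at 36.7 and 2.85 at 24 h, and no vehicle list at these times held a peak. The intronic RB1CC1 region, in a gene needed to start autophagy, was at 55.8 and 59.9 after EGF at 24 h and at 40.6 and 20.5 after HRG. Near PEDS1 the values at 24 h were 58.7 and 54.1 after EGF and 35.4 and 9.81 after HRG. In these 3 regions both EGF lists at 24 h ranked above both HRG lists, but the HRG replicates lay far apart and the lists differed in length.

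The BORCS5 region behaved otherwise. It was at 4.38 and 6.36 after EGF at 24 h in BT474R, where no HRG list at 24 h held a peak. The MIDEAS region, low after EGF at 1 h, ranked at 24.98 and 47.7 after EGF at 12 h and at 58.2 and 55.5 at 24 h, when HRG was at 59.3 and 52.9.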
